A study of Cavia porcellus with 24 samples.

Results

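The diet response of the carotid endothelium was examined in F1 guinea pigs (Cavia porcellus) whose F0 dams had been fed the full ration, as 3 animals on the high fat diet (PC-H, animals 11, 21 and 34) against 3 on the control diet (PC-C, animals 13, 27 and 28), 6 of the 24 animals of the series. Members were chosen by the sample labels alone, and genes were described where the mean over 23 animals was 10 or more normalized counts, which held for 13224 of 18149 genes. PC marks dams kept on 100% of the ad libitum ration. PR marks dams cut to 70% of it until about mid-gestation and then held to a milder restriction until the end of lactation. C or H at the end of a group name marks an animal fed the control or the high fat diet. The high fat diet supplied 38% of energy as fat, 20% as protein and 42% as carbohydrate, with 0.25% cholesterol, 15% pork fat and 2.5% fructose added, and the control diet supplied 13%, 27% and 60%. Both were fed for 12 weeks and RNA was taken at 20 weeks of age by flushing a carotid artery with lysis reagent, so each library is 1 animal and 1 vessel. The F2 groups PC-C-C and PC-C-H descend from F1 females of the PC arm kept on the control diet as breeders, and not from the PC-C animals compared here. Animal 34 is listed as female with a change to a mixture of diets partway through feeding, and all other PC-H and PC-C animals are listed as male. The study's methods state that siblings were kept off the same diet, but litters are not named in the labels, so littermates split between PC-H and PC-C could not be matched.

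The endothelium is the single cell layer that lines an artery and meets the lipoproteins of the blood. Liver X receptors (LXR) are nuclear receptors that bind oxidized cholesterol and switch on genes that export cholesterol, limit its uptake and make fatty acids. Chaperones fold newly made proteins in the cytosol, in the endoplasmic reticulum and in mitochondria, and their transcripts rise under heat or folding stress. The table gives Ensembl identifiers of the guinea pig, and 147 of these carry a name. All names come from a gene list that the study made for this comparison, read here only in part. Every named gene was thus picked on these 6 animals, and its direction here is a description and not independent evidence. The DESeq2 Wald test, which the study used too, called 143 of the 147. A list with 0 called with limma below was thus still called by DESeq2 in nearly every member. That repeats the test behind the choice of names, so the DESeq2 counts by list are not a second result. Over all genes tested, DESeq2 called 1.37%, while 6.81% were higher and 5.66% lower in PC-H without overlap between the groups. The lists of microtubule, ribosome, ubiquitin, chromatin, matrix and vesicle genes hold only genes with such a name. Their direction and lack of overlap were thus set by the choice and say nothing of other genes of those kinds. In the other lists too, only members with a name were tested, so their direction and lack of overlap likewise depended on the choice. None of the 10 endothelial markers written down has a name in that list, so the labelled cell type was not checked against its markers here. The count of reads by gene came from a program not given in the sources used here, and reads of close gene copies (such as the Hspa8, tubulin and Dynll1 families) may be assigned to the wrong copy.

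By the counts of genes that follow, the 3 PC-H animals differed from each other more than the animals of any other group did. The highest and the lowest of the 3 animals lay more than 1 apart on the log2 scale for 4254 genes in PC-H (32.2% of those tested), against 2640 in PC-C, 2747 in PR-C and 2081 in PR-H. Among the 22 pairs of animals that share a group, the 3 PC-H pairs ranked first, with 2856 genes more than 2-fold apart for animals 21 and 34, 2265 for 11 and 21, and 2223 for 11 and 34. The other 19 pairs ran from 861 to 1973 genes, with a median of 1294. Animal 21 lay more than 2-fold from PC-C animals 13, 27 and 28 in 1952, 1346 and 1654 genes, while the PC-C pairs differed in 1403 to 1640, so it was below that range for animal 27 and above it for the other two. Animal 34 differed from the controls in 2118 to 2769 genes and animal 11 in 1927 to 2476. These libraries were alike in depth, with 24030113 to 27512249 reads in PC-H and 22163509 to 25153398 in PC-C. In a check for libraries deposited more than once, pairs within a group differed by a chi-square of 27.8 to 205 for each degree of freedom, so none agreed within the sampling noise of reads.

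**Figure D1:**
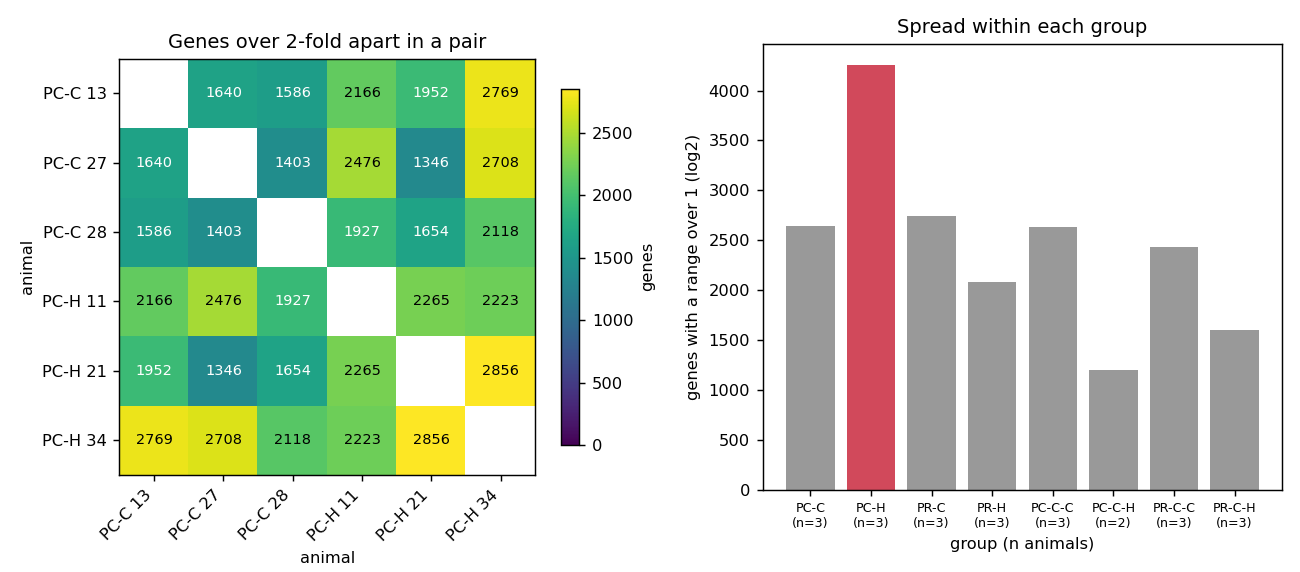
Left, the number of genes (of 13224) that differed by more than 2-fold between each pair of the 6 PC animals. Right, bars from 0 give the number of genes whose highest and lowest animal lay more than 1 apart on the log2 scale in each group, with n animals. PC-H stood highest at 4254 genes, and the pair of animals 21 and 27 differed least at 1346.

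Each PC-H animal can also be set against the mean of the 3 PC-C animals, which all 3 share. Animal 34 had 1290 genes more than 1 above that mean on the log2 scale and 898 more than 1 below it. For animal 11 the counts were 913 and 997, and for animal 21 they were 437 and 842. Animal 21 thus had the fewest genes that far from the controls. It was the nearest of the 3 to the control mean in 6221 genes, animal 11 in 3887 and animal 34 in 3116.

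Across genes, 16 of 13224 (0.121%) were called in PC-H vs PC-C with limma at a Benjamini-Hochberg adjusted p under 0.05, 10 higher (0.0756%) and 6 lower (0.0454%) in PC-H. A total of 1929 genes had an unadjusted p under 0.05. The DESeq2 Wald test on the recovered reads called 190 genes (1.37%), 100 of them higher, and these included all 16. edgeR called 6, all among the 16. In limma, array weights or a fit to only the 2 groups compared left 0 genes called (1140 and 805 at an unadjusted p under 0.05), so every limma call in this comparison is lost in those fits. A gene is called with limma in what follows unless another tool is named. Without overlap between the 2 groups, 901 genes (6.81%) were higher and 748 (5.66%) lower in PC-H, and all 16 called genes were among these. For any single gene, 3 animals against 3 allow an exact two-sided permutation p no lower than 0.1, so the calls rest on the spread that limma shares across genes and groups. With 1 PC animal left out, limma called 206 genes without animal 21, 6 without 11, 5 without 34, 1 without 13, 4 without 27 and 7 without 28. Of the 16 genes, 16, 5, 4, 1, 4 and 7 remained in these fits.

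Of 10 cholesterol and fatty acid genes written down as controlled by LXR, 4 had a name, and all 4 were called as higher in PC-H. The rest could not be looked at. Their median log2 difference was 2.67, beside -0.01 over all genes tested, a gap that the choice of named genes on these animals favours. The study names Abca1, another cholesterol transporter, as shared by its other diet comparisons but not by this one. Values are normalized counts throughout, given for PC-C animals 13, 27 and 28 and for PC-H animals 11, 21 and 34, in that order. In bulk RNA of this kind, more cells of a type and more RNA per cell cannot be told apart.

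Abcg1 (ENSCPOG00000015194), which exports cholesterol from cells to lipoproteins, measured 202, 65.5 and 381 in PC-C and 2318, 2399 and 1277 in PC-H. The lowest PC-H animal was more than 3-fold above the highest control. Its mean was 9.25-fold higher (1998 ± 626 against 216 ± 158, SD, n = 3 each), with a log2 difference of 3.48 (SE 0.56, adjusted p = 0.0281, limma). Srebf1 (ENSCPOG00000002439), the transcription factor that drives fatty acid synthesis, stood at 54.4, 21.2 and 227 in PC-C and 574, 902 and 438 in PC-H. Its controls spread widely, with animal 28 the highest, but stayed below all 3 PC-H animals. The mean was 6.33-fold higher, with a log2 difference of 3.22 (SE 0.54, adjusted p = 0.0281, limma).

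Mylip (ENSCPOG00000002917), a ubiquitin ligase that marks the LDL receptor for degradation, read 592, 340.3 and 659 in PC-C and 1615, 1505 and 1363 in PC-H. This was the tightest group of the 4 in PC-H, and Mylip was the one gene called in all 6 fits that left out a PC animal. Its mean was 2.82-fold higher, with a log2 difference of 1.55 (SE 0.22, adjusted p = 0.0101, limma). Scd1 (ENSCPOG00000032751), the desaturase that makes monounsaturated fatty acids, gave 177, 211 and 623 in PC-C and 1118, 1068 and 1584 in PC-H. Control animal 28 was again the highest control, and the groups did not overlap. Scd1 was 3.73-fold higher on average, with a log2 difference of 2.11 (SE 0.41, adjusted p = 0.0458, limma). Its call was kept in 2 of the 6 fits without 1 animal, as against 3 of 6 for both Abcg1 and Srebf1. Animal 21, the nearest to the controls over all genes, was the highest of the 6 animals for Abcg1 and Srebf1. Of 11 genes written down for cholesterol synthesis and uptake under SREBP2, only Fntb had a name. It encodes a subunit of the enzyme that attaches farnesyl groups to proteins and neither makes nor takes up cholesterol, so that pathway is not described here. Fntb measured 564, 558 and 603 in PC-C and 856, 783 and 824 in PC-H, which did not pass the test (adjusted p = 0.18, limma).

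**Figure D2:**
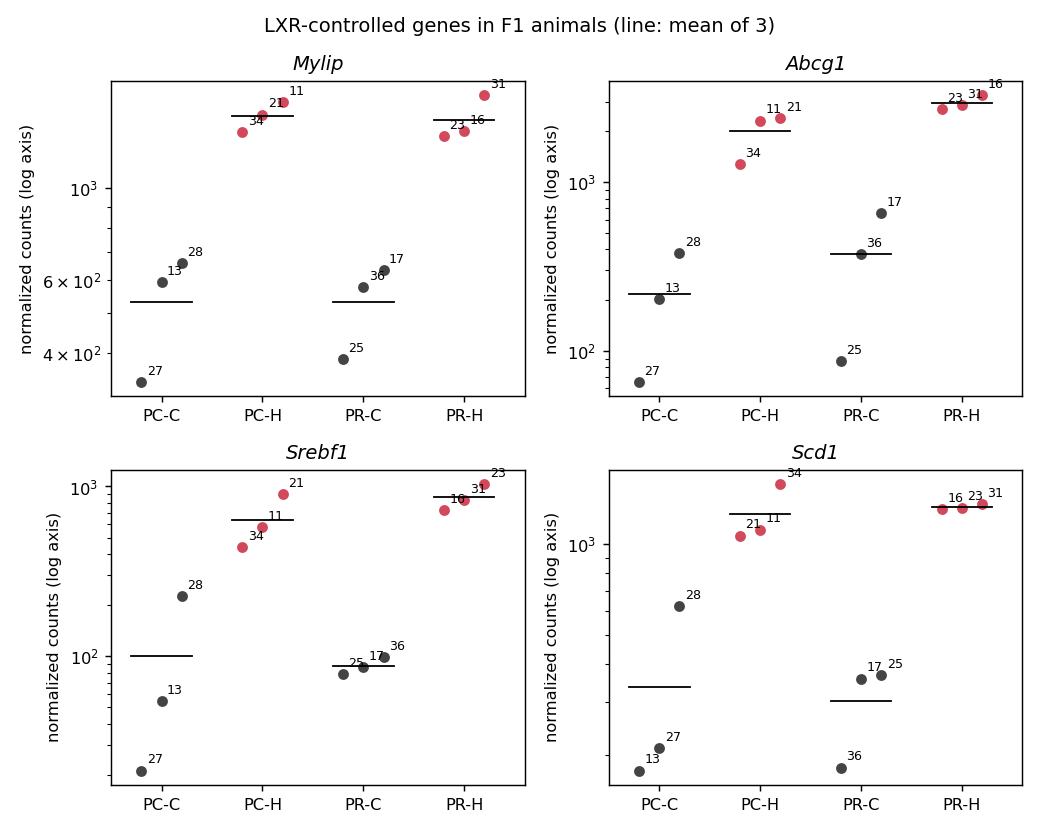
Normalized counts on a log axis for the 4 named LXR-controlled genes in each F1 animal, with animal numbers beside the points, control diet in grey, high fat diet in red and a line at the mean of 3. In both arms the high fat animals lay above the control animals for all 4 genes, and Srebf1 and Abcg1 were lowest in control animal 27.

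The other 6 genes that were called as higher have varied roles. Fzd7 (ENSCPOG00000003276), a Wnt receptor, was close to undetected in controls and present in every PC-H animal, with 0, 4.82 and 0 in PC-C and 57.9, 25.2 and 31.6 in PC-H. Its fitted log2 difference of 4.36 (SE 0.77, adjusted p = 0.0281, limma) depends on the pseudocount because 2 controls were at 0. Meox2 (ENSCPOG00000026227), a homeobox factor of vascular cells, measured 256, 314 and 534 in PC-C and 665, 1347 and 873 in PC-H. It was the most uneven of these 6 in PC-H after Fzd7, with animal 21 about 2-fold above animal 11, and had a log2 difference of 1.39 (SE 0.27, adjusted p = 0.0458, limma). Manf (ENSCPOG00000006177), an endoplasmic reticulum protein released under folding stress, gave 2018, 1676 and 2181 in PC-C and 3611, 4101 and 4117 in PC-H. The 3 PC-H animals lay close together, and Manf had a log2 difference of 1.02 (SE 0.19, adjusted p = 0.0304, limma).

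Dynll1 (ENSCPOG00000036786), the dynein light chain, gave 10343, 11389 and 9364 in PC-C and 20409, 18416 and 24933 in PC-H, with a log2 difference of 1.03 (SE 0.19, adjusted p = 0.0304, limma). Cacybp (ENSCPOG00000038347), which binds S100 proteins and Hsp90, stood at 3081, 3367 and 2405 in PC-C and 4658, 4936 and 6447 in PC-H. Animal 34 was the highest for both of these genes. Cacybp had a log2 difference of 0.86 (SE 0.15, adjusted p = 0.0281, limma). Smco4 (ENSCPOG00000032286), a small membrane protein, read 1120.0, 1539 and 1612 in PC-C and 2585, 2871 and 3157 in PC-H, with a log2 difference of 1.03 (SE 0.17, adjusted p = 0.0281, limma). None of these 3 genes overlapped between the groups. PC-C means lay below those of PR-C and PC-C-C, also on the control diet, for Meox2 (368 against 635 and 734) and Smco4 (1424 against 2126 and 1844). The same held for Manf (1958 against 2604 and 2214), Cacybp (2951 against 3808 and 3441) and Fzd7 (1.61 against 11.6 and 4.65). For Dynll1 the PC-C mean lay between (10365 against 12395 and 9305).

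Among the 6 that were called as lower, Tshz1 (ENSCPOG00000009072), a zinc finger transcription factor, was the one gene with a name. It measured 1687, 1959.7 and 1952 in PC-C and 942, 1100.3 and 1088 in PC-H, a log2 difference of -0.84 (SE 0.15, adjusted p = 0.0281, limma). The controls varied little, and the PC-H animals were all near 1000 normalized counts. ENSCPOG00000014708 had 3926, 2661 and 2753 in PC-C and 1507, 1189 and 1408 in PC-H, ENSCPOG00000023014 had 12205, 14033 and 11945 in PC-C and 7621, 5085 and 6330.2 in PC-H, and ENSCPOG00000002738 had 816, 751 and 559 in PC-C and 371, 309.6 and 314 in PC-H. In each of these 3 genes the PC-H mean was close to the middle of the way from the control mean to 0. ENSCPOG00000034626 read 71.8, 28.9 and 90.3 in PC-C and 5.34, 13.1 and 0.904 in PC-H, lowest in animal 34. ENSCPOG00000035503 read 44.1, 35.7 and 41.4 in PC-C and 0, 0 and 2.71 in PC-H, so that it was listed at 0 in 2 of the PC-H animals. Its mean was 40.4 in PC-C but 18.8 in PR-C and 3.06 in PC-C-C, also on the control diet. PC-C means likewise exceeded those of PR-C and PC-C-C for ENSCPOG00000002738 (709 against 486 and 405) and ENSCPOG00000014708 (3114 against 2008 and 2305). The same held for ENSCPOG00000023014 (12728 against 10360 and 10632) and ENSCPOG00000034626 (63.7 against 38.1 and 55.3). For Tshz1 the PC-C mean lay between (1866 against 1704 and 2159).

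**Figure D3:**
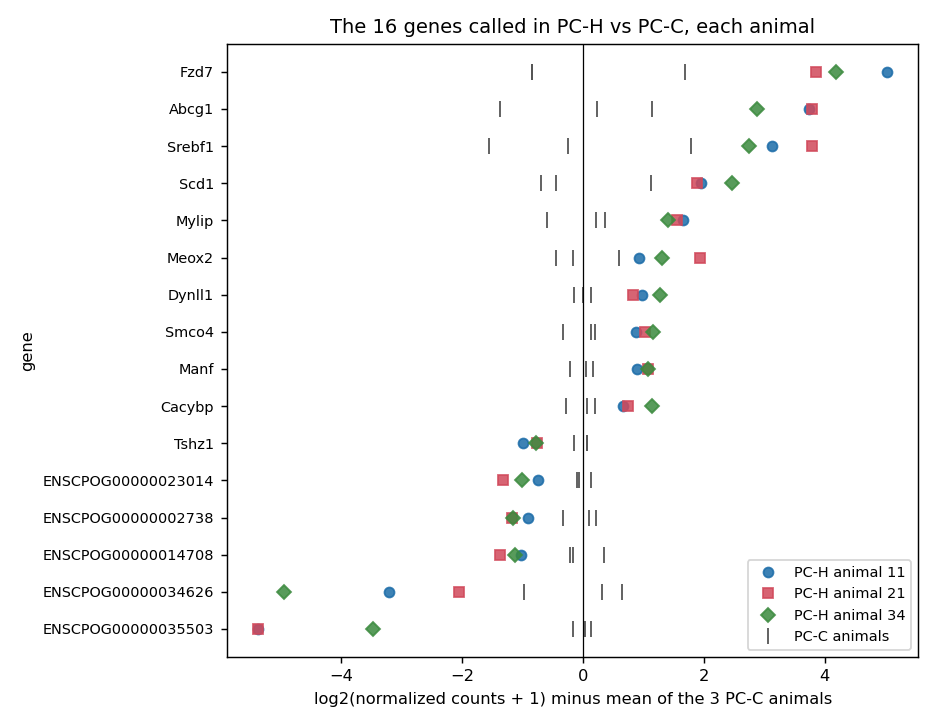
For each of the 16 called genes, the log2 normalized count plus 1 of each PC-H animal (coloured symbols) and each PC-C animal (ticks) minus the mean of the 3 PC-C animals. The PC-H animals lay on 1 side of the controls in every gene, with Fzd7 the farthest above them and ENSCPOG00000035503 the farthest below.

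Of the cytosolic chaperones written down, 7 of 16 had a name, and all 7 were higher in PC-H without overlap (median log2 difference 0.59), with 1 called, Cacybp. Hspa8, the constitutive Hsp70, varied widely, with 17036, 20274 and 10826 in PC-C and 29435, 44933 and 24056 in PC-H. Animal 21 was the highest and control 28 the lowest, and its log2 difference of 1.03 did not pass (adjusted p = 0.119, limma). Dnajb1, an Hsp40 that works with Hsp70, measured 2635, 2620.0 and 2701 in PC-C and 4322, 4394 and 3303 in PC-H. Its 3 controls lay close together, and animal 34 was the lowest of the PC-H animals. Hspa14, a ribosome-bound Hsp70, had 696, 697 and 729.6 in PC-C and 901, 1136 and 1347 in PC-H, and Txnl1, a thioredoxin-like protein of the proteasome, had 1970.3, 1872 and 2102 in PC-C and 2827, 2671 and 3539.8 in PC-H (adjusted p = 0.0831 and 0.0855, limma). For both of these it was animal 34 that was the highest.

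In the endoplasmic reticulum list, 5 of 15 genes had a name, all 5 were higher without overlap (median 0.50), and Manf alone was called. Xbp1, the transcription factor of the unfolded protein response, was even among the PC-H animals, with 4850.4, 4863 and 4289 in PC-C and 6367, 6642 and 6653 in PC-H. Dnajb11, a cochaperone of BiP, gave 2040.1, 2233 and 1879.5 in PC-C and 2528, 3134 and 3064 in PC-H. Neither passed the test (adjusted p = 0.169 for each, limma). Tusc3, part of the oligosaccharyl transferase, measured 1262, 1441 and 1346 in PC-C and 1881, 1575 and 1839 in PC-H, where animal 21 was nearest to the controls, and Dnajc25 measured 603, 564 and 556 in PC-C and 705, 960.1 and 880.4 in PC-H, where animal 11 was nearest.

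The 2 mitochondrial lists lay on opposite sides of the controls, and in both of them animal 21 was the nearest to the controls. Of the genes for import, folding and membrane, 7 of 11 had a name, all 7 higher without overlap (median 0.63), with 0 called with limma (adjusted p 0.0783 to 0.172) and 7 with DESeq2. Chchd4, which folds proteins of the intermembrane space, read 313, 298 and 397 in PC-C and 769, 512 and 829.8 in PC-H. Timm13, a small chaperone of the same space, read 421, 340.3 and 527 in PC-C and 916, 596 and 770.1 in PC-H. Animal 21 stood between the controls and the other PC-H animals in both. Tmem11, an inner membrane protein, had 1182, 1185 and 1218 in PC-C and 2013, 1451 and 2145 in PC-H, the outer membrane channel gene Vdac2 had 3944, 4222 and 4485 in PC-C and 5785, 5299.7 and 6752 in PC-H, and Prelid1, which carries phosphatidic acid, had 2048, 2019 and 1944 in PC-C and 2777, 2479 and 2876 in PC-H. Animal 21 was the nearest of the 3 to the control mean in 7 of 7 genes of this list.

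Of the genes for mitochondrial DNA upkeep and mitochondrial enzymes, 7 of 10 had a name, all 7 lower without overlap (median -0.75), with 0 called with limma (adjusted p 0.116 to 0.18) and 7 with DESeq2. Top1mt, the mitochondrial topoisomerase, read 2525, 2018 and 2832 in PC-C and 1234, 1225 and 1546 in PC-H. Polg, the mitochondrial DNA polymerase, read 1490.3, 1138 and 1325 in PC-C and 581, 1068 and 760.2 in PC-H, with animal 21 close to control 27 and animal 11 the lowest. Slc25a40, an inner membrane carrier, read 249, 208 and 166 in PC-C and 65.9, 131 and 124 in PC-H. These show animal 11 as the lowest or near it in each case. Hars2, the mitochondrial histidyl tRNA synthetase, had 800.0, 544 and 653 in PC-C and 387, 487 and 417 in PC-H, and Gpd2, the glycerol phosphate dehydrogenase, had 2287, 2611 and 1755 in PC-C and 1490.0, 1748 and 1259 in PC-H, where animal 21 lay just under control 28. Animal 21 was the nearest to the control mean in 6 of these 7.

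Microtubule and dynein genes numbered 9 with a name, 7 higher and 2 lower without overlap, with Dynll1 called. Tuba4a, an alpha tubulin, read 33.8, 42.4 and 58.3 in PC-C and 208, 211 and 353 in PC-H, and Tuba8, another, read 78.0, 76.2 and 89.3 in PC-C and 170.1, 191 and 202 in PC-H. Dcx, a microtubule binding protein known from neurons, was low, with 5.13, 1.93 and 4.70 in PC-C and 37.4, 27.2 and 31.6 in PC-H. Every PC-H animal was above the PC-C animals in all 3, with log2 differences of 2.48, 1.20 and 2.81, and none passed (adjusted p = 0.109, 0.109 and 0.108, limma). The means of these 3 genes were lower in PC-C than in PR-C and PC-C-C, also on the control diet. They were 3.92 against 20.8 and 22.5 for Dcx, 81.1 against 165 and 123 for Tuba8, and 44.9 against 55.4 and 185 for Tuba4a. Cntrl, a centrosome protein, was among the lower, with 1403, 1135 and 1451 in PC-C and 924, 751 and 831 in PC-H.

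The 7 genes of ribosome assembly and translation, a list made only of genes picked as changed, were higher without overlap (median 0.59), with 0 called with limma and 7 with DESeq2. Eif1ad had 1210.3, 1039 and 1131 in PC-C and 1706, 1506 and 1915 in PC-H, and Aimp2, a scaffold of tRNA synthetases, had 973, 1103 and 858 in PC-C and 1484, 1309 and 1388 in PC-H (adjusted p = 0.0799 and 0.125, limma). Mcts1, which helps ribosomes restart, had 938, 956 and 945 in PC-C and 1470.4, 1257 and 1571 in PC-H, and Utp23, a ribosomal RNA processing factor, had 249, 313 and 362 in PC-C and 562, 424 and 526 in PC-H. In these 4 genes animal 21 was the lowest of the PC-H animals. In Ccdc86, a nucleolar protein, it was animal 34 that was the lowest, with 338, 402 and 498 in PC-C and 885, 834 and 563 in PC-H. Of 4 ubiquitin conjugation genes, Mylip was called. The conjugating enzymes Ube2l3, at 3314, 3778 and 3579 in PC-C and 4568, 4738 and 5212 in PC-H, and Ube2a, at 2913, 3375 and 3114 in PC-C and 3974, 4510.0 and 4676 in PC-H, were higher without overlap, and Unkl, at 1297, 1354 and 1094 in PC-C and 707, 843 and 988 in PC-H, was lower, none of them passing.

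The 20 chromatin and transcription genes split into 9 higher and 11 lower, with Meox2 and Tshz1 called, 1 in each direction. Gmeb2, a glucocorticoid element binding protein, read 447, 415 and 332 in PC-C and 154, 277 and 213 in PC-H, and Srsf5, a splicing factor, read 5417, 4212 and 5707 in PC-C and 3307, 3116 and 2992 in PC-H. Phf11, a zinc finger protein, read 1152, 1126 and 1103 in PC-C and 1451, 1455 and 1922 in PC-H. None of the 3 passed (adjusted p = 0.0831, 0.109 and 0.108, limma). The vesicle and lysosome list, also made only of genes picked as changed, had 6 genes, all lower without overlap (median -0.70), with 0 called with limma and 6 with DESeq2. Tecpr1, which joins autophagosomes to lysosomes, had 2072, 1723 and 1512 in PC-C and 1149, 1258 and 1022 in PC-H, and Zfyve26 had 1064, 909 and 953 in PC-C and 513, 668 and 663 in PC-H. Dennd6b, an exchange factor for Rab proteins, had 693, 533 and 897 in PC-C and 471, 309 and 464 in PC-H. The protein kinase A anchor Akap11 had 1949, 1966 and 1422 in PC-C and 929.8, 1174 and 949 in PC-H, and Capn10, a calpain, had 1414, 1081 and 1559 in PC-C and 865, 809.8 and 776 in PC-H. The PC-H animals agreed in this list, with medians of -0.72, -0.65 and -0.68 for animals 11, 21 and 34.

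Among 6 matrix and adhesion genes from the same names, 3 were higher and 3 lower, with 0 called with limma and 6 with DESeq2. The lower ones were Npnt, an integrin ligand of basement membranes, at 14758, 23839 and 21610.4 in PC-C and 13725, 10929 and 11838 in PC-H, Ltbp1, which stores TGF-beta in the matrix, at 13723, 12379 and 11135 in PC-C and 6696, 8169 and 5636 in PC-H, and Cdh24, a cadherin, at 481, 339 and 597 in PC-C and 267, 290.4 and 238 in PC-H. Each was lower in all 3 PC-H animals. Colec12, a scavenger receptor, had 155, 139 and 369 in PC-C and 978, 311 and 887 in PC-H, where animal 21 fell inside the control range, and Lhfpl6 had 1492, 1051 and 1559 in PC-C and 2349, 1559 and 2817 in PC-H, where animal 21 was within 1 normalized count of the highest control. Ackr3, a scavenger receptor for CXCL12, had 801, 1217 and 886 in PC-C and 1879, 3320.0 and 1854 in PC-H, highest in animal 21, and did not pass (adjusted p = 0.178, limma).

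Leukocyte markers were highest in animal 34. Of 12 B cell and leukocyte markers, 7 had a name and 5 were tested with limma, with 5 higher and 0 called. DESeq2, which filters by its own rule, called 6 of the 7 as higher. The summed normalized counts of the 7 were 44.1, 88.7 and 69.6 in PC-C and 280, 142 and 1221 in PC-H. Pou2af1, a B cell coactivator, read 0, 0 and 0 in PC-C and 0, 10.1 and 247 in PC-H, so it was listed at 0 in every control and in animal 11. Fcmr, the IgM receptor, read 1.03, 28.0 and 3.76 in PC-C and 41.9, 9.08 and 288 in PC-H, and Limd2 read 32.8, 28.0 and 53.6 in PC-C and 97.1, 56.5 and 382 in PC-H. Animal 34 was the highest in each, and Fcmr and Pou2af1 overlapped between the groups. Samsn1, an adaptor of B cells, was more even, with 10.3, 32.8 and 7.52 in PC-C and 62.3, 56.5 and 87.7 in PC-H. Siglec1, a macrophage lectin that interferon induces and that stands in both lists, had 0, 0 and 4.70 in PC-C and 28.5, 8.07 and 156 in PC-H.

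Of 11 interferon and innate sensing genes, 7 had a name, 5 higher and 2 lower, with 0 called with limma and 7 with DESeq2. Ifit5, an RNA binding protein that interferon induces, gave 316, 422 and 370.5 in PC-C and 582, 664 and 1009 in PC-H. Zc3hav1, an antiviral zinc finger protein, gave 2966, 2030.1 and 2290.4 in PC-C and 1405, 1672 and 1462 in PC-H, and Nod2, a sensor of bacterial cell walls, gave 770.3, 969 and 911 in PC-C and 391, 641 and 362 in PC-H. The first was highest in animal 34, and the other two were lower in every PC-H animal. Median differences of this list from the control mean were 0.67, 0.56 and 1.46 in animals 11, 21 and 34, alongside the high sum of the leukocyte markers in animal 34, whose part in this difference was not tested. Of 8 fibroblast and adventitia markers 2 had a name, Scx and Medag. Scx, a tendon and matrix transcription factor, had 899.5, 635 and 667 in PC-C and 2015, 1564 and 1491 in PC-H, and Medag had 996, 632 and 734 in PC-C and 1396, 1274 and 1443 in PC-H. Both were higher in PC-H without overlap, neither passed, and their part in the other differences was not tested. No name was paired with any of the 7 smooth muscle or 4 red cell markers.

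Set side by side, the lists did not vary among the 3 animals in the same way. Over the cytosolic chaperones the median difference from the control mean was 0.51, 0.68 and 0.63 in animals 11, 21 and 34, and over the endoplasmic reticulum list it was 0.45, 0.62 and 0.58. Animal 21 was the nearest of the 3 to the control mean in 1 of 7 and 1 of 5 of these genes, in 1 of 4 LXR genes and in 0 of 4 ubiquitin genes. Over mitochondrial import it was 0.73, 0.33 and 0.84, and over mitochondrial DNA upkeep it was -0.98, -0.43 and -0.77. Animal 21 was the nearest in 7 of 7 and 6 of 7 of these, and in 6 of 7 ribosome genes, beside 6221 of the 13224 genes tested. Among the 141 tested genes with a name, animal 21 was the nearest in 50 of the 94 that were higher and in 29 of the 47 that were lower. These counts describe 3 animals and carry no test.

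**Figure D4:**
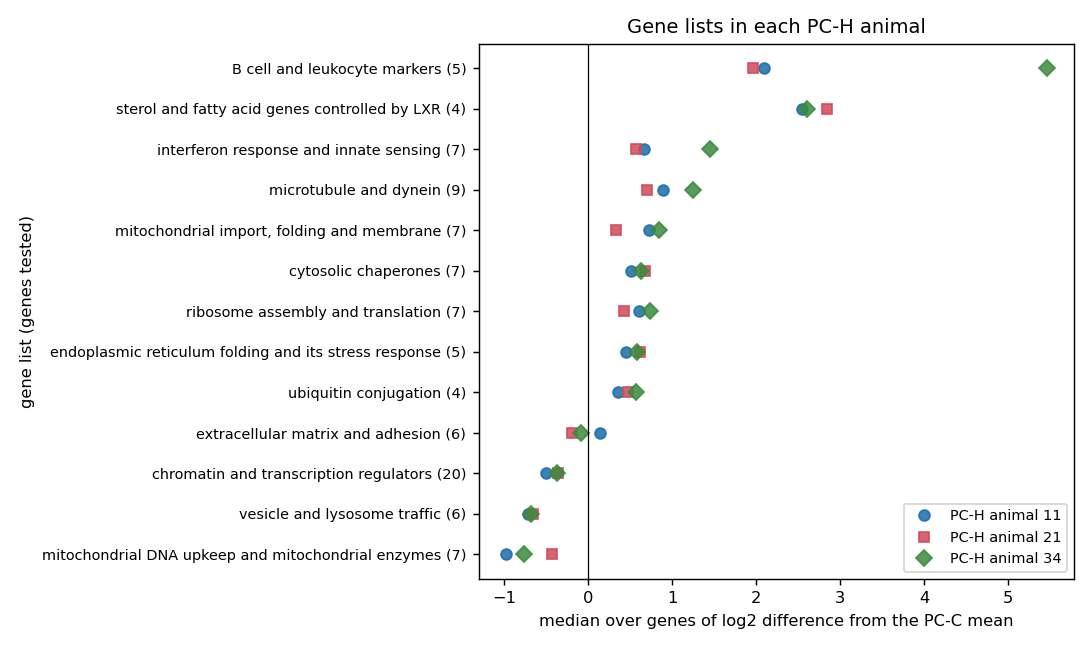
Median over the tested genes of each list of the log2 difference between each PC-H animal and the PC-C mean, with the number of genes in brackets. Animal 21 stood nearest to 0 for both mitochondrial lists (0.33 and -0.43), and animal 34 stood apart for the leukocyte markers (5.47).

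Leaving animal 21 out raised the limma count to 206 genes (1.56% of those tested), 84 higher and 122 lower, and the DESeq2 count to 1528 (11.6%). In that fit 60 of the 141 tested named genes were called, 39 higher and 21 lower, against 11 with all 6 animals. The mitochondrial lists went from 0 to 5 of 7 called for import, folding and membrane and from 0 to 6 of 7 for DNA upkeep and enzymes. Animal 21 was the nearest to the control mean in most genes of both lists, and their members were named from these animals. The gain of these lists is thus a description and no separate evidence. The chromatin genes went from 2 to 9 of 20, the interferon genes from 0 to 4 of 7, the matrix genes from 0 to 3 of 6, the leukocyte markers from 0 to 3 of 5 and the cytosolic chaperones from 1 to 3 of 7. Ribosome and microtubule genes reached 2 of 7 and 2 of 9, and vesicle genes 1 of 6. The LXR genes stayed at 4 of 4 and the endoplasmic reticulum list at 1 of 5. With any other PC animal left out, 1 to 6 named genes were called.

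Some genes with high counts set a single PC-H animal apart from the others of its group. Among genes averaging 100 or more normalized counts in the 6 animals, those that set 1 PC-H animal farthest from the other two were taken, 3 in each direction. ENSCPOG00000003248 reached 0, 0 and 5462 in PC-H and 0, 1.93 and 0.940 in PC-C, and it was at 0 to 5.69 in the 17 animals of the other groups. ENSCPOG00000031403 had 0, 13.5 and 0 in PC-C and 0, 0 and 1306 in PC-H, and ENSCPOG00000030940 had 0, 0 and 0 in PC-C and 4.45, 0 and 1366 in PC-H. Animal 34 was the one animal of 23 with high values in these 3 genes. In the opposite direction it was low in ENSCPOG00000004272, with 287, 581 and 796 in PC-C and 165, 326 and 6.33 in PC-H, and in ENSCPOG00000034388, with 164, 561 and 396 in PC-C and 763, 318 and 28.9 in PC-H.

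In animal 21, ENSCPOG00000002092 gave 86.2, 41.5 and 58.3 in PC-C and 240.5, 0 and 1084 in PC-H, ENSCPOG00000012274 gave 121, 84.8 and 301 in PC-C and 399, 0 and 534 in PC-H, and ENSCPOG00000039753 gave 118, 178 and 563 in PC-C and 75.7, 0 and 892 in PC-H. All 3 were listed at 0 in animal 21 and had reads in the other 5 PC animals. In the other 17 animals their lowest values were 0, 1.63 and 0 and their medians 17.1, 26.9 and 18.9, so values near 0 occurred elsewhere too. Animal 21 was high in ENSCPOG00000001523, with 1037, 8361 and 28518 in PC-C and 10799.7, 174854 and 6546 in PC-H, and in ENSCPOG00000007268, with 31.8, 89.6 and 399 in PC-C and 25.8, 1972 and 49.7 in PC-H. Both genes also ranged widely in the other 17 animals, reaching 286372 and 2728. ENSCPOG00000026863 separated animal 21, at 0, 304 and 119 in PC-C and 0, 189 and 0 in PC-H, but control 13 was at 0 as well.

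Animal 11 was the highest of the 6 PC animals for ENSCPOG00000039289, with 162, 14.5 and 16.9 in PC-C and 563, 6.05 and 15.4 in PC-H, and for ENSCPOG00000001577, with 126, 98.3 and 49.8 in PC-C and 458, 10.1 and 29.8 in PC-H. In the other 17 animals the first reached 1295, above animal 11, and the second reached 407. ENSCPOG00000039872 had 455, 604 and 579 in PC-C and 601, 1.01 and 447 in PC-H and was chosen because animal 21 was near 0. Of the 3 genes in which animal 11 was farthest below, ENSCPOG00000001253 had 81.0, 40.5 and 32.0 in PC-C and 0, 8.07 and 596 in PC-H, and the other two were ENSCPOG00000003248 and ENSCPOG00000031403, where animal 34 set the difference. A further 3 genes were more than 1 on the log2 scale higher in every one of the 6 animals listed as female than in any of the 17 listed as male. ENSCPOG00000037170, ENSCPOG00000040428 and ENSCPOG00000037137 had 62.4, 29.8 and 38.0 normalized counts in animal 34. In males the first 2 were listed at 0 and the last had 1 read at most. These genes were picked with animal 34 among the females, so its place above the males was set by the choice and is no check of its sex. With sex as a covariate, limma called 17 genes in PC-H vs PC-C, 14 of them among the 16.

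The restricted arm gives values of the same genes in animals outside this comparison. In PR-H vs PR-C limma called 3 genes (0.0227%), Abcg1, Srebf1 and Mylip. The log2 differences there were 3.40, 3.27, 1.48 and, for Scd1, 2.20, and the differences between the arms were 0.08 ± 0.79, -0.05 ± 0.77, 0.06 ± 0.31 and -0.09 ± 0.59 (standard error). In PR-C animals 17, 25 and 36 Abcg1 had 658, 87.3 and 375.0 normalized counts, and in PR-H animals 16, 23 and 31 it had 3268, 2714 and 2870. Ackr3 had 1435, 2051 and 1374 in PR-C and 4163, 4484 and 4894 in PR-H, with no overlap. The other called genes with a name had log2 differences there of 0.01 for Fzd7, 0.38 for Meox2, 0.32 for Manf, 0.36 for Dynll1, 0.25 for Cacybp, 0.10 for Smco4 and 0.16 for Tshz1. The difference between the arms did not pass for any of these 7 genes (adjusted p = 0.65 for each, limma). Among the called genes without a name, the PR differences were -0.16 for ENSCPOG00000002738, -0.17 for ENSCPOG00000014708 and -0.07 for ENSCPOG00000023014. They were 0.42 for ENSCPOG00000034626 and -1.11 for ENSCPOG00000035503. Of the 6 genes called as lower in PC-H, 4 were thus also lower in PR-H, and of the 10 called as higher, 10 were also higher.

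The difference between the PC and PR diet responses was tested directly and gave 0 genes with limma, 0 with DESeq2 and 0 with edgeR, with 956 genes (7.23%) at an unadjusted p under 0.05 with limma. Of the 94 named genes higher in PC-H, 59 were also higher in PR-H (62.8%, median log2 difference 0.09), beside 47.3% of all genes higher in PC-H. Of the 47 that were lower, 33 were also lower in PR-H (70.2%, median -0.12), beside 49.2%. By list, the PR medians were 2.74 for the LXR genes, 0.22 for cytosolic chaperones, 0.17 for the endoplasmic reticulum, 0.08 for mitochondrial import, -0.09 for mitochondrial DNA upkeep, -0.06 for ribosome assembly and -0.20 for vesicle genes. These stand beside PC medians of 2.67, 0.59, 0.50, 0.63, -0.75, 0.59 and -0.70, which the choice of the genes favours.

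**Figure D5:**
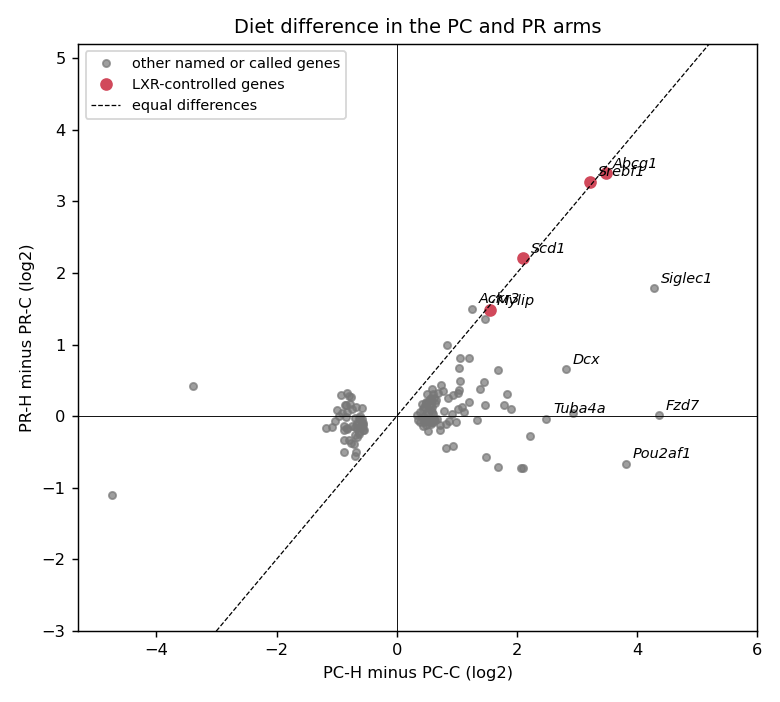
The log2 difference of high fat from control diet in the PC arm (horizontal) and in the PR arm (vertical) for each tested gene that was named or called, with the dashed line at equal differences. The 4 LXR-controlled genes (red) lay close to the line, and most other genes lay nearer to 0 in the PR arm, where Fzd7 was at 0.01.

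In the next generation, F2 animals descended from F1 breeders of the PC arm were set on the same diets, with 2 PC-C-H animals used against 3 PC-C-C. The log2 differences were 3.36 for Abcg1, 2.57 for Srebf1, 1.66 for Mylip and 1.18 for Scd1, and Mylip was the one gene called by limma (0.00756%), while DESeq2 called 49 (0.306%), 23 of them higher. The difference between the F1 and F2 responses gave 0 genes with limma and 0 with edgeR, with 1305 and 1432 at an unadjusted p under 0.05, and 34 with DESeq2. Without PC-C-C animal 52 limma gave 78. Of the named genes higher in PC-H, 66 of 94 (70.2%) were also higher in PC-C-H, beside 49.1% of all genes, and of those lower 29 of 47 (61.7%) were lower, beside 50.7%. The medians by list were 2.11 for the LXR genes, 0.10 for cytosolic chaperones, 0.05 for the endoplasmic reticulum, 0.07 for mitochondrial import and -0.29 for mitochondrial DNA upkeep. Of the genes called in PC-H vs PC-C, 10 of 10 higher and 4 of 6 lower ones kept their direction in F2. The lower ones had differences of -0.004 for Tshz1, -0.32 for ENSCPOG00000014708, -0.02 for ENSCPOG00000023014 and -0.57 for ENSCPOG00000034626. ENSCPOG00000002738 and ENSCPOG00000035503 went the other way, at 0.32 and 1.24.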

How the data were processed

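Per the labels and the study's methods, polyA RNA from 1 carotid artery per animal was sequenced, and the authors' tools were FastQC for read quality, Trimmomatic for trimming, STAR for alignment and DESeq2. Versions, genome build, annotation and the counting program are not given in the sources used here. The deposited signal values (normalized counts) are the reads of a gene scaled by a size factor that DESeq2 gives each library. Reads were recovered by dividing each column by its smallest value above 0, and 100% of values came out whole within a relative tolerance of 1e-06. Reads per library ranged from 14061522 to 31148123 over the 24 libraries. Intervals over animals, not counting error, set the precision, and without molecular identifiers a read is not an independent molecule.

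limma 3.58.1 (trend, log2 with a pseudocount of 1) was run on 13224 genes whose mean over 23 libraries was 10 or more. The model had 8 group means, with 15 residual degrees of freedom and 5.17 from the prior, and Benjamini-Hochberg adjustment at 0.05. Animal 51 (PC-C-H), absent from the study's animal list, was left out. DESeq2 1.42.0 (deposited size factors, filtering at 0.05) and edgeR 4.0.16 were run on the recovered reads in R 4.3.3. The scripts were tested on simulated data. The labels do not say whether animals share a litter, so p-values measure the spread between these animals.

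The text names every gene called with limma, up to 5 tested genes of each list with the lowest unadjusted p, and the genes that set 1 PC-H animal apart. The genes of 1 cytoskeleton list are not reported here. The genes, lists and tests were chosen with earlier results of these data known. RefSeq names could not be joined to the identifiers, and no sequence or position was used here. Alternatives were the tests, TMM normalization, pseudocounts of 0.1 and 10, no filter and a mean of at least 50, only the groups compared, 24 libraries, array weights, a term for sex and leaving out each animal in turn. DESeq2 with each PC animal left out was added after the values were seen.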

Additional observations from a re-analysis of the deposited data

Results flagged for a closer look

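Among the named genes, 6 had a mean under 10 normalized counts and were not tested. They were listed at 0 in all 3 PC-C animals and had more than 3 reads in a PC-H animal. All 6 had reads in other animals on the control diet, so they were not absent on that diet. The highest normalized counts there were 22.06 for Rnasep_Nuc and 14.71 for Hpdl, both in PC-C-C animal 54. They were 15.96 for Bach2 in PR-C-C animal 41 and 6.51 for Cap11 in PR-C animal 17. For both Gprin3 and Ndp the highest was 5.686, in PC-C-C animal 52. Gprin3 reached 135.6 normalized counts and Ndp, a Wnt pathway ligand that binds frizzled receptors, reached 84.1, both in animal 34 and both listed at 0 in animals 11 and 21. Rnasep_Nuc, an RNA of the nuclear RNase P, was found in animal 11 at 85.5. Another named RNA, 7Sk, was also highest in that animal, with 22.6, 15.4 and 15.0 in PC-C and 254.7, 17.1 and 26.2 in PC-H. Whether the library of animal 11 differs in such RNAs was not tested. Bach2, a B cell transcription factor, reached 38.9 in animal 34 and 33.0 in animal 11, and was listed at 0 in animal 21. Hpdl had 30.3, 7.06 and 20.8 in animals 11, 21 and 34, and Cap11, an antimicrobial peptide of neutrophils, had 16.9, 2.02 and 20.8, so these were the ones present in all 3 PC-H animals. Bach2 and Cap11 belong to the leukocyte markers, whose summed level was 1221 in animal 34. No group held more than 3 animals, so the test for outlying samples, which needs 4 in a group, was not run.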

How the results depend on the processing

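No paired analysis was possible because the groups share no animal numbers and the labels do not give the litters that were split between diets. The 16 genes called in PC-H vs PC-C became 190 with DESeq2, 6 with edgeR, 4 with 24 libraries, and 0 both with array weights and with only the groups compared (1140 and 805 at an unadjusted p under 0.05). With 1 animal left out the count ran from 1 to 206 with limma and from 79 to 1528 with DESeq2 (112 without 11 or 28, 143 without 27, 161 without 34), each highest without animal 21 and lowest without animal 13. Other settings gave 13 to 21 genes. PR-H vs PR-C gave 3 genes, 17 with DESeq2 or array weights, 1 with edgeR, 24 libraries, sex as a covariate or only the groups compared, and 0 to 2 with 1 animal left out. The difference between the PC and PR responses stayed at 0 genes in every setting run. That between F1 and F2 gave 34 with DESeq2, 1 with array weights or a pseudocount of 0.1, and 0 to 78 with 1 animal left out. The cause of these changes was not tested. Genes with a range over 1 within PC-H numbered 2694 at a mean of at least 50, where fewer genes are counted, and 4256 with TMM. For the 16 called genes and the named list members, the direction was the same in all 2522 values from alternatives. These genes were chosen as changed in these animals, and nearly all did not overlap between the groups. Their direction could thus hardly reverse, and its constancy is no separate evidence. In 119 of them a call was lost and in 382 one was gained. Genes under a mean of 10 normalized counts were not tested with limma at this depth.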

Other observations

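Fzd7, which was called only in the PC arm, had reads in every animal of the other groups shown here. It measured 3.72, 10.8 and 20.2 normalized counts in PR-C animals 17, 25 and 36, and 6.87, 12.3 and 10.6 in PR-H animals 16, 23 and 31. In F2 it had 5.69, 4.90 and 3.36 in PC-C-C animals 52, 54 and 55, and 26.8 and 8.42 in PC-C-H animals 50 and 53. The PC-C values of 0, 4.82 and 0 were the lowest of these groups for 2 of the 3 animals, and PC-C-H animal 50 lay above PC-H animal 21, at 25.2. Manf, the endoplasmic reticulum gene called in PC-H, had 2457, 3163 and 2191 in PR-C and 3759, 2345 and 3743 in PR-H. The PR groups overlapped, and control animal 25 was above PR-H animal 23.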
